A study of Rattus norvegicus with 2 samples.

Results

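Bmal1, Clock, Npas2, Cry1, Nfil3, Cry2 and Rora are genes of the circadian clock. They are transcriptional activators, genes usually high at the same time of day as Bmal1 or close to it, and Cry2, which encodes an inhibitor of the activators. They were picked by name, and every probe set annotated with exactly 1 gene whose current or older symbol is one of these names was taken. This gave 12 probe sets for the 7 genes, out of 20826 probe sets for 14217 genes on the array. Clock had 4 probe sets, Cry2 and Rora 2 each, and the other 4 genes 1 each. The names were chosen with the same drug contrast already known, so the direction and size of their differences are a description, no test is attached to them, and nothing is inferred from how many of them were higher.

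The series asks how OSU-HDAC42, an orally active inhibitor of histone deacetylases, affects gene expression in the rat esophagus. The OSU-HDAC42 group was male Sprague-Dawley rats, an outbred laboratory strain, 5 to 6 weeks old, that received 7 gavage doses of 50 mg/kg, 350 mg/kg in all, with esophagi collected on day 15, that is 24 hours past the final gavage. The vehicle group was rats of the same strain, sex and age that were gavaged with vehicle on the same schedule. Each group had 1 Affymetrix Rat Genome 230 2.0 array, and the labels do not say whether its RNA came from 1 rat or from several, nor at what hour the tissue was collected. With 1 array a group, no difference below has a standard error between rats or a p-value.

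In the mammalian clock, BMAL1 pairs with CLOCK or with its relative NPAS2 and binds E-box sequences, where the pair activates the Per and Cry genes, the REV-ERB receptor genes Nr1d1 and Nr1d2, and outputs such as Dbp. The PER and CRY proteins then inhibit the pair. In a further loop, worked out mostly in mice, the REV-ERB receptors repress Bmal1, Npas2, Nfil3 and Cry1 through ROR elements, recruiting a corepressor that contains HDAC3, while RORA and its relatives activate through the same elements. Genes that REV-ERB represses therefore tend to be high when Dbp and the Per genes are low.

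All values are deposited probe set intensities on a linear scale, and a difference is always the log2 value of the OSU-HDAC42 array less that of the vehicle array, after values under 16 were raised to 16. A gene is represented by the probe set that is brightest by its mean log2 value, and it counts as above the expression floor when its brighter array reaches 49.1, the median over probe sets. All 7 genes were higher on the OSU-HDAC42 array by that probe set, while 46.7% of the 9560 genes above the floor were higher. Bmal1 was the only one of the 7 that was at least 2-fold higher, where 1.88% of genes above the floor were. Bmal1 and Cry1 were at least 1.5-fold higher, where 7.58% of genes were. The median difference of the 7 genes was 0.42 (1.34-fold), and of the 6 without Bmal1 it was 0.39, beside a median of -0.027 and an SD of 0.48 over all genes above the floor.

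**Figure D1:**
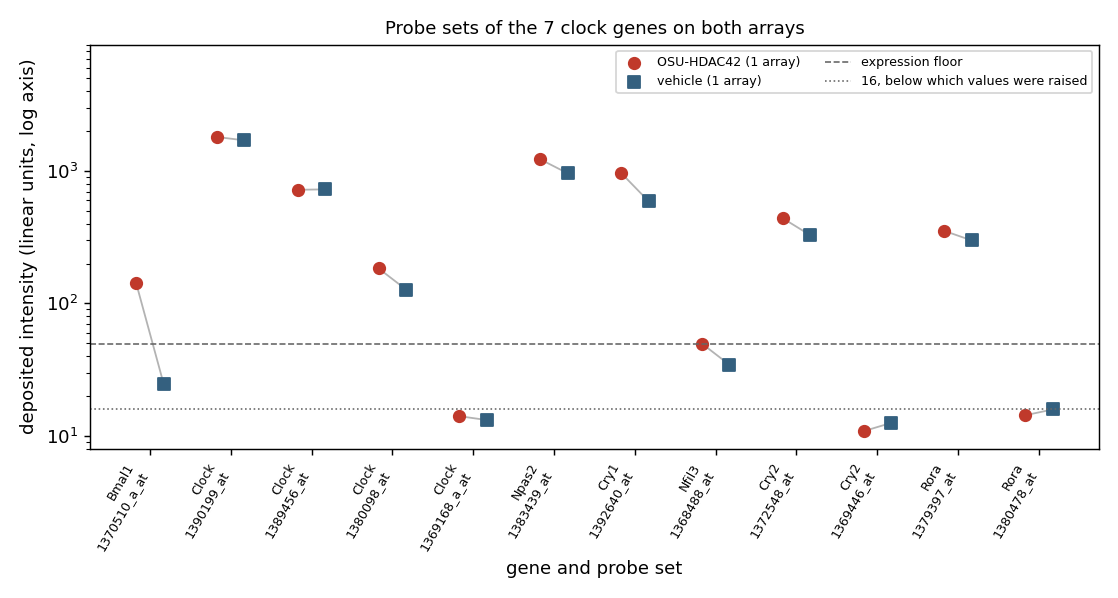
Deposited intensity (linear units on a log axis) of each of the 12 probe sets of the 7 clock genes on the OSU-HDAC42 array (circles) and the vehicle array (squares), each point being 1 array, with the expression floor dashed and the value of 16 dotted. Bmal1 stands at 143 after OSU-HDAC42 and 24.7 after vehicle, the widest gap, and 1 probe set each of Clock, Cry2 and Rora lies under 16 on both arrays.

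Bmal1, also written Arntl, encodes the basic helix-loop-helix PAS protein without which the clock stops in mice. Its single probe set, 1370510_a_at, gave intensities of 143 after OSU-HDAC42 and 24.7 after vehicle. The OSU-HDAC42 value lies well above the floor, and the vehicle value lies below it but above 16. The difference was 2.53 (5.76-fold higher), and 0.0732% of genes above the floor differed at least as much in either direction. Counting only genes that were higher, 4 genes of 9560, Bmal1 among them, had a difference that large or larger. Of all probe sets, 65.7% were dimmer than that of Bmal1 after OSU-HDAC42 and 38.9% after vehicle, so its fold change depends on a dim value. The suffix a in the probe set's name marks a design that detects several transcripts of 1 gene. With all values under 32 raised to 32, the difference was 2.16 (4.46-fold).

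Since Bmal1 is controlled in mice through ROR elements close to its start site, its promoter sequence is given. That of Npas2, another gene REV-ERB represses in mice, is given beside it. So is that of Cry2, the only other gene with a match among the 6 that had a promoter to search, which left out Cry1. Sequences are the 250 bases before a start site in RefSeq's table for the rat assembly GRCr8, read 5′ to 3′ on the gene's strand, and matches to the searched motifs are in capitals. Bmal1 is chr1:176766078-176766327 on the plus strand, Npas2 is chr9:48959315-48959564 on the plus strand, and Cry2 is chr3:98860438-98860687 on the minus strand.
Bmal1: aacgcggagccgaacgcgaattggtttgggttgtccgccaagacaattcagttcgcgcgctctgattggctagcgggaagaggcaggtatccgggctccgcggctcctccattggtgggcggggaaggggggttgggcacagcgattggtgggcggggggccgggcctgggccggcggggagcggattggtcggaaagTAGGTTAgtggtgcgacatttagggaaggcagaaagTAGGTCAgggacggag
Npas2: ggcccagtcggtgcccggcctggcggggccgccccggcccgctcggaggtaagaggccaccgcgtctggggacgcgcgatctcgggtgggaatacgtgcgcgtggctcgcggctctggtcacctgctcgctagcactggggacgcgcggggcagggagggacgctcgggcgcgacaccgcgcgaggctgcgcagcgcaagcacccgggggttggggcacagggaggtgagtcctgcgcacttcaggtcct
Cry2: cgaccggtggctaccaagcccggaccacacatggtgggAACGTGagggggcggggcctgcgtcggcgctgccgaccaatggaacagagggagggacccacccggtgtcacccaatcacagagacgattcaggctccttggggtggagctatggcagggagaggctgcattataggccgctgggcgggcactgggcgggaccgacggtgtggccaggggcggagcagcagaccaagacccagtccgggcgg

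The motifs searched on both strands, in windows from 250 bases before to 50 bases after the start, were the E-box CACGTG, the E-box variant CACGTT, the ROR element cores TAGGTCA and TGGGTCA, the D-box as TTATGTAA or TTACGTAA, and the cAMP response element TGACGTCA, and none of these contains another. Bmal1 held TAGGTCA with its first base at position -16 from the start, and one of these ROR element cores occurs in 6.60% of 33469 promoters. It also held TAGGTTA at position -52, a variant searched after the sequence had been read, which occurs in 1.61% of promoters. Together, at least 2 matches to these 3 words occur in 0.436% of promoters. The RefSeq gene record of Bmal1 begins 106 bases before this start site, so both matches lie inside the annotated gene.

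Cry2 held CACGTT, on the strand opposite to the gene, with its leftmost base at position -212, and 4.83% of promoters hold that word. The windows of Clock, Npas2, Nfil3 and Rora held none of the searched words. The gene record of Npas2 begins 340 bases before its start site, so the printed Npas2 sequence lies inside the annotated gene. Clock has 2 windows, with start sites 3 and 37798 bases inside its gene record. The single start site of Rora lies 633545 bases inside its record. A promoter of Cry1 was not analysed here. A match describes letters in a window and does not show that a factor binds there.

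Clock encodes the usual partner of BMAL1 and has histone acetyltransferase activity of its own. Its brightest probe set, 1390199_at, had an intensity of 1807 after OSU-HDAC42 and 1704 after vehicle, a difference of 0.085. The next, 1389456_at, stood at 721 after OSU-HDAC42 and 727 after vehicle, a difference of -0.011. Both bright probe sets were thus nearly equal on the arrays. The dimmer 1380098_at stood at 184 after OSU-HDAC42 and 127 after vehicle, a difference of 0.53, and 1369168_a_at was at 14.1 after OSU-HDAC42 and 13.2 after vehicle, under 16 on both arrays. Over the 3 probe sets above the floor the difference averaged 0.20 ± 0.29 (SD over probe sets of 1 gene, not over rats), so its distance from 0 was smaller than the spread between probe sets. By the brightest probe set, 81.5% of genes above the floor differed at least as much in either direction.

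Npas2 encodes the CLOCK relative that can take its place beside BMAL1. Its probe set 1383439_at had an intensity of 1225 after OSU-HDAC42 and 961 after vehicle. The difference was 0.35 (1.27-fold higher), and 38.0% of genes above the floor differed at least as much in either direction. Among the 500 probe sets nearest to it in brightness, the middle 95% of differences ran from -0.66 to 0.74.

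Cry1 and Cry2 encode cryptochromes, which bind the CLOCK and BMAL1 pair and inhibit it, Cry1 usually being the later of the pair to peak. Cry1 was measured by 1392640_at, at 967 after OSU-HDAC42 and 591 after vehicle. Its difference of 0.71 (1.64-fold higher) was the largest of the 7 after Bmal1, and 12.4% of genes above the floor differed at least as much in either direction. Cry2 stood at 440 after OSU-HDAC42 and 328 after vehicle on 1372548_at, a difference of 0.42 (1.34-fold higher), which 30.2% of genes above the floor matched or exceeded in size. The other Cry2 probe set, 1369446_at, was under 16 on both arrays, at 10.8 after OSU-HDAC42 and 12.5 after vehicle, and gives no measured difference. Its values differed by -0.21 with nothing raised, in the opposite direction to the bright probe set.

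Nfil3, also called E4bp4, encodes a bZIP repressor that competes with DBP and its relatives for D-boxes. Its probe set 1368488_at had an intensity of 49.7 after OSU-HDAC42 and 34.4 after vehicle, a difference of 0.53 (1.44-fold higher), which 21.9% of genes above the floor matched or exceeded in size. Like Bmal1, Nfil3 passed the floor only through the OSU-HDAC42 array, where its value clears 49.1 only barely, and a floor taken from arithmetic means, 49.8, would have left Nfil3 below it. Rora encodes a nuclear receptor that activates Bmal1 through ROR elements. It stood at 353 after OSU-HDAC42 and 299 after vehicle on 1379397_at, a difference of 0.24 (1.18-fold higher), and 52.8% of genes above the floor differed at least as much in either direction. Its other probe set, 1380478_at, was under 16 on both arrays, at 14.3 after OSU-HDAC42 and 15.8 after vehicle, a difference of -0.15 with nothing raised.

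The only measure of error in these data is the spread between probe sets. Over 3643 pairs of probe sets above the floor in 2126 genes, the differences of probe sets of the same gene were apart with an SD of 0.41. That SD covers whatever sets probe sets of the same gene apart, which need not be probe noise alone. It does not cover the spread between rats or between arrays, so it does not show whether any of the 7 differences exceeds that. The spread of differences also depends on brightness, so each probe set was set beside the 500 probe sets nearest to it in mean log2 intensity. For Bmal1 these neighbours had an SD of 0.58 and the middle 95% of them lay between -1.12 and 1.13, below the 2.53 of Bmal1. For Cry1 that range was -0.71 to 0.72, and its 0.71 lay just inside it. For Nfil3 it was -1.05 to 0.92 and for Cry2 -0.92 to 0.87, both wider than for Cry1, and their differences of 0.53 and 0.42 lay well within. For Rora it was -0.87 to 0.99 around a difference of 0.24. The dimmest Clock probe set above the floor, at 0.53, lay within -1.04 to 0.86. Of the 9 probe sets of the 7 genes above the floor, 8 were higher on the OSU-HDAC42 array and 1 was lower, and 8 lay inside the range of their neighbours. Bmal1 was picked with its difference known, so its place beyond the range is a description. Under the scaling alternatives, which were centring each array, quantile normalization and removal of a lowess trend, Bmal1 stayed between 2.53 and 2.54, Cry1 between 0.68 and 0.73, Npas2 between 0.32 and 0.37 and Clock between 0.044 and 0.10, and the other 3 genes also stayed above 0.

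**Figure D2:**
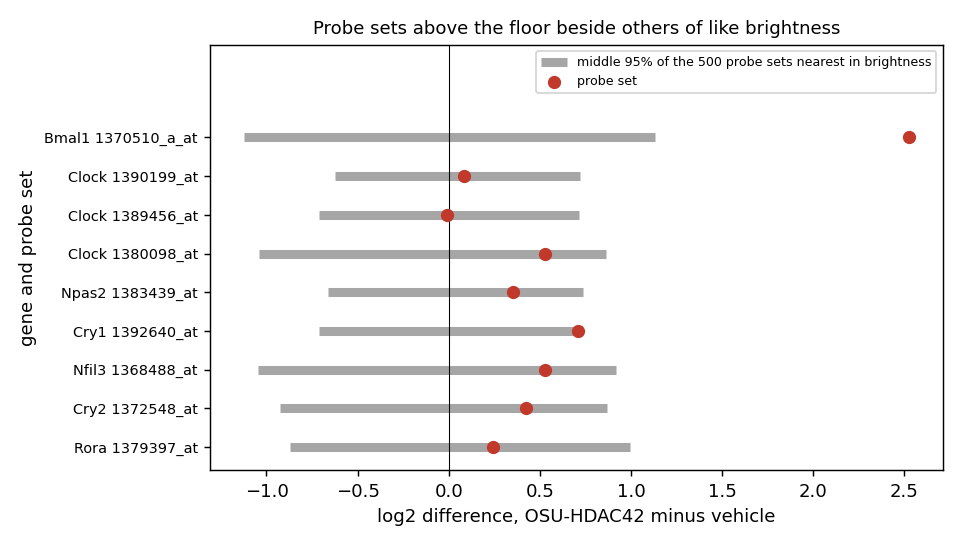
The log2 difference (OSU-HDAC42 minus vehicle) of the 9 probe sets above the floor (points) on the horizontal axis, beside the middle 95% of the differences of the 500 probe sets nearest in brightness (grey bars). Bmal1 at 2.53 lies beyond its bar, which ends at 1.13, and the other 8 points lie on theirs.

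**Figure D3:**
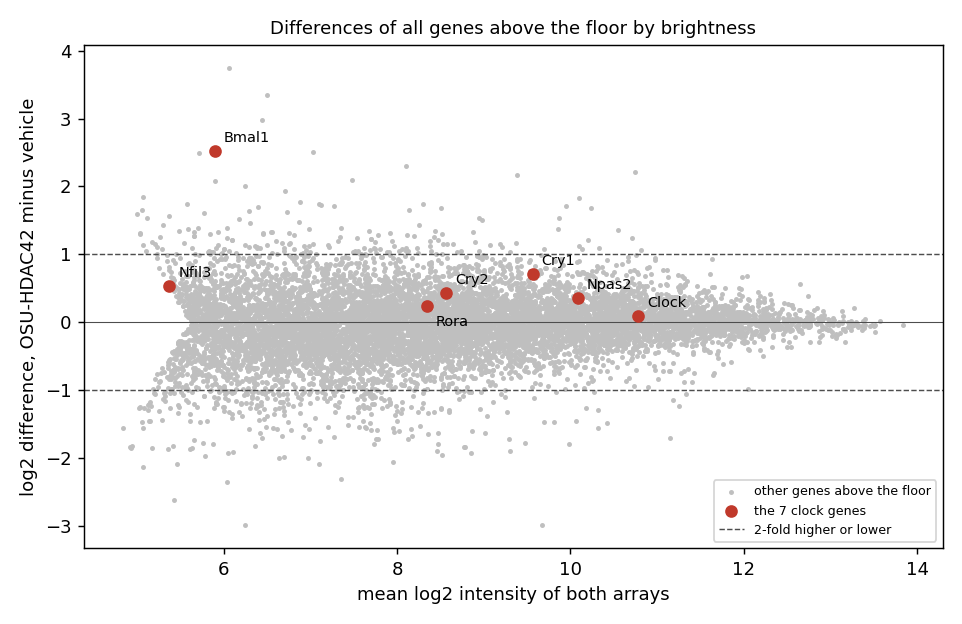
The log2 difference (OSU-HDAC42 minus vehicle) against the mean log2 intensity of both arrays for the 9560 genes above the floor (grey), with the 7 clock genes as labelled points and 2-fold as dashed lines. Bmal1 lies among the highest points of the plot, at 2.53, and the other 6 genes lie between 0 and 1, inside the cloud.

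The other clock genes came from lists by role. Of 35 genes listed, 29 were measured and 27 were above the floor, 10 of them higher and 17 lower on the OSU-HDAC42 array, with a median of -0.21. None was at least 2-fold higher, where 1.88% of all genes above the floor were. The 4 that were at least 2-fold lower, where 3.17% of all genes above the floor were, all belonged to the Per and E-box repressors or to the PAR bZIP factors. The 7 genes had been set apart from this pathway with the directions known, so the shared direction of the groups below is likewise a description.

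All 5 measured genes among the Per and E-box repressors were lower, with a median of -1.33. Per2, a partner of the cryptochromes, had an intensity of 233 after OSU-HDAC42 and 838 after vehicle, a difference of -1.85. Its other probe set differed by only -0.39. Bhlhe41, which competes with the CLOCK and BMAL1 pair for E-boxes, differed by -1.52, and Per3 by -1.33. The other Per3 probe set, below the floor, differed by -0.43. The PAR bZIP factors activate through the D-boxes that NFIL3 represses, and all 3 were lower. Dbp stood at 186 after OSU-HDAC42 and 725 after vehicle, a difference of -1.96, in the opposite direction to Nfil3, while Tef differed by -0.55 and Hlf by -0.37. The REV-ERB gene Nr1d1 stood at 411 after OSU-HDAC42 and 647 after vehicle, a difference of -0.65. Its relative Nr1d2 stood at 863 after OSU-HDAC42 and 1615 after vehicle, a difference of -0.90, also short of 2-fold. Their activating counterpart Rora differed by 0.24, and Rorb was under 16 on both arrays. Counting every probe set above the floor, all 15 probe sets of the 10 genes in these 3 groups were lower, 4 of them at least 2-fold.

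Genes that act on clock proteins or as cofactors differed by at most 0.51 in either direction by their brightest probe sets. Of these 17 genes above the floor 0 reached 2-fold, close to the shares over all genes, 1.88% higher and 3.17% lower. A dimmer probe set of Btrc differed by -1.23. The medians were -0.078 over 5 kinase genes, with Csnk1e at -0.42 and Gsk3b at 0.33, then 0.13 over 5 genes of CRY and PER turnover, with Fbxw11 at 0.51 and Ddb1 at 0.31, and 0.11 over 7 cofactor genes, with Wdr5 at 0.50 and Ep300 at -0.39. Ncor1 and Hdac3, parts of the REV-ERB corepressor, differed by 0.24 and 0.34.

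**Figure D4:**
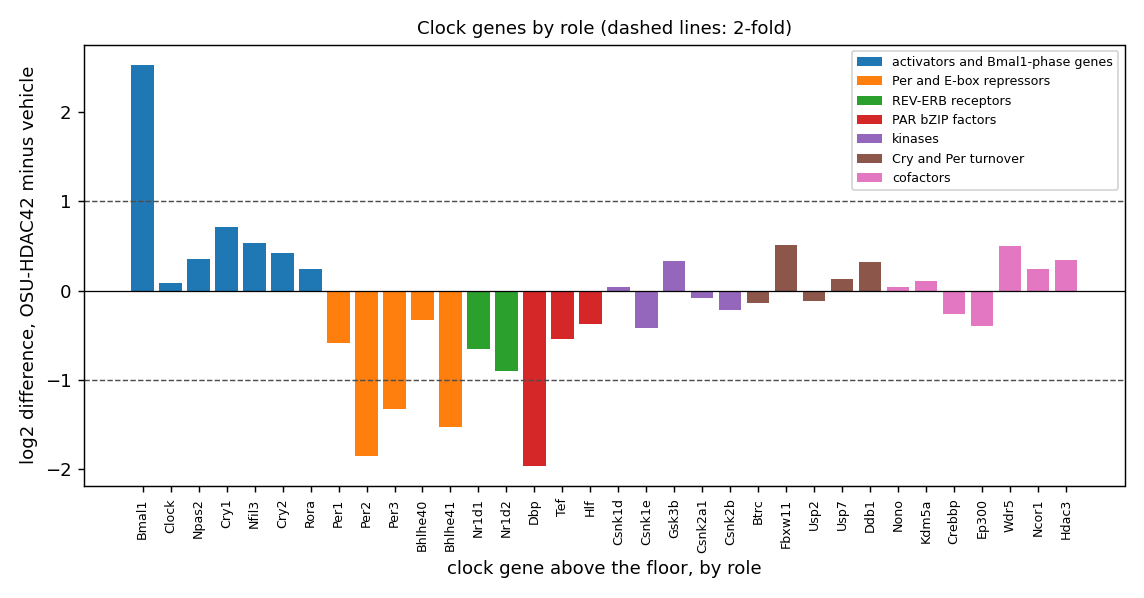
The log2 difference (OSU-HDAC42 minus vehicle) of each clock gene above the floor, 1 bar a gene from its brightest probe set, coloured by role, with 2-fold as dashed lines. The bars of the first group run from 0.085 (Clock) to 2.53 (Bmal1), all bars of the Per and E-box repressors, REV-ERB receptors and PAR bZIP factors point down to as low as -1.96 (Dbp), and those of the kinases, turnover genes and cofactors lie between -0.42 and 0.51.

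BMAL1, CLOCK and NPAS2 belong to the bHLH-PAS family, and the rest of the family was measured for comparison. Of 14 other genes measured, 5 were above the floor, 2 of them higher and 3 lower, and none reached 2-fold. Bmal2, the closest relative of Bmal1, was under 16 on both arrays, at 11.4 after OSU-HDAC42 and 9.61 after vehicle.

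The genes outside the clock with a difference nearest to that of Bmal1, by the gap between log2 differences over the 2 arrays, were Wasf1, Ypel4, Pde4c, Sprr1b and Serpina12. They differed by 2.51, 2.50, 2.30, 2.21 and 2.16 in that order, and Wasf1, an actin regulator, had an intensity of 311 after OSU-HDAC42 and 54.6 after vehicle. With 1 array a group, this likeness is that of a single difference.

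The labelled tissue was checked against markers, and the sum of the 16 measured squamous keratinocyte markers was 109798 after OSU-HDAC42 and 114938 after vehicle, with Krt13, Krtdap and Krt4 the brightest of the list. Of these 16 markers 14 were lower and 2 higher on the OSU-HDAC42 array. Of all 9560 genes above the floor, 5045 were lower and 4468 higher. The median difference of the 16 markers was -0.070, and they ran from -0.69 to the 2.21 of Sprr1b, named above as near to Bmal1. Markers of other cell types differed between the arrays as well. Of 22 skeletal muscle markers, 21 were lower and 14 at least 2-fold lower on the OSU-HDAC42 array, with summed intensities of 21789 after OSU-HDAC42 and 41862 after vehicle and no marker under 16 on both arrays. All 12 smooth muscle markers were higher, with sums of 19748 after OSU-HDAC42 and 13307 after vehicle, and 9 of 12 fibroblast markers were higher, with sums of 22918 after OSU-HDAC42 and 18296 after vehicle. Des is on both muscle lists and in both of their sums, and it is the 1 skeletal muscle marker that was higher. The 9 endothelial markers summed to 3183 after OSU-HDAC42 and 3151 after vehicle, with 3 higher and 6 lower, and the 11 leukocyte markers to 1227 after OSU-HDAC42 and 1364 after vehicle, with 2 of them under 16 on both arrays. In bulk tissue, fewer cells of a type and less RNA per cell cannot be told apart, and the part of these shifts in the values of the clock genes was not tested. The 3' over 5' intensity ratio of the beta-actin control was 6.29 after OSU-HDAC42 and 7.76 after vehicle, and that of GAPDH was 2.09 after OSU-HDAC42 and 2.32 after vehicle. That of hexokinase was 7.18 after OSU-HDAC42 and 5.66 after vehicle, and the part of these ratios was not tested either.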

How the data were processed

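RNA of esophageal tissue was measured on 2 arrays, 1 of the OSU-HDAC42 group and 1 of the vehicle group. The values the authors deposited are linear intensities, 1 for each probe set and array. The unit was inferred from their range, which was 4.54 to 14438 after OSU-HDAC42 and 4.48 to 14947 after vehicle, leaving out controls. The submitters' processing notes name GCOS and RMA with no role, and how the arrays were scaled to each other is not given in the sources used here. Of 31042 non-control probe sets, 20826 had 1 gene symbol, 436 several and 9780 none, and only the first were used, with symbols updated by gene ID through RefSeq's GRCr8 table. Intensities under 16 were raised to 16 (28.4% of probe sets after OSU-HDAC42 and 29.2% after vehicle), log2 was taken, and the difference was computed with Python 3.11.15 and pandas 2.3.3, a step tested on simulated data. No test was possible, and the number of arrays limits the precision.

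The members and gene lists were chosen with earlier results of these data known. Of 143 list entries 132 were measured, 2 of them through an older symbol. Besides the 7 genes, the text names clock genes past 2-fold, the 2 largest differences above the floor of each clock list, the bHLH-PAS gene Bmal2 and any past 2-fold, the 3 brightest keratinocyte markers (the rule allowed up to 3 of each marker list), and the 5 genes nearest to Bmal1. The rule for the clock lists had stated no floor. Without it, the cofactor Timeless, at 0.48 but below the floor, would have been named in place of Ep300. Other genes were named after their values were seen, namely Hlf, Ncor1, Hdac3, Rorb, Btrc and Des. Alternatives covered raised values, scaling, probe set choice, the floor and the fold threshold.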

Additional observations from a re-analysis of the deposited data

How the results depend on the processing

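Over the alternatives for raised values, scaling and probe set choice, the difference of Bmal1 ran from 2.16 to 2.54, Cry1 from 0.68 to 0.73, Nfil3 from 0.52 to 0.55 and Npas2 from 0.32 to 0.37, and the median of the 7 genes from 0.35 to 0.44. Bmal1 was at 2.16 with values under 32 raised to 32. With the dimmest probe set of each gene, Clock, Cry2 and Rora were at 0 because those probe sets lie under 16 on both arrays. By that choice the median of the Per and E-box repressors was -0.49, that of the cofactors 0.42, and that of the PAR bZIP factors -1.96, which is then Dbp alone above the floor. Those of the repressors and cofactors also cover fewer genes, since Per3, Crebbp and Ep300 fall below the floor. The median over all probe sets of a gene gave -0.88 for the Per and E-box repressors, and 3 clock genes at least 2-fold lower against 4. By construction, 1.5-fold gave 725 genes higher and 1042 lower (clock genes 2 and 7), 3-fold gave 31 and 57 (clock genes 1 and 2), and a floor at the 75th percentile gave 75 and 119, with 0 clock genes higher since Bmal1 is too dim for it, against 180 and 303 (clock genes 1 and 4). The floor from arithmetic means, chosen after seeing the data, moved no count by over 1.5 times. Signal close to background limits Bmal1 on the vehicle array and Nfil3 on both. No paired analysis was possible because there is only 1 array per group.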

Other observations

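Promoter words were also set beside the differences of all genes, as counts with no test. Among the 8023 genes above the floor with a promoter in the RefSeq table, 428 held a ROR element core (TAGGTCA or TGGGTCA), of which 10 (2.34%) were higher by 2-fold or more after OSU-HDAC42, where 1.91% of the 8023 genes were. Another 18 (4.21%) were lower by 2-fold or more, where 3.15% of the 8023 genes were. The 823 genes with the E-box CACGTG had 9 (1.09%) higher and 24 (2.92%) lower by 2-fold. The 479 genes with the variant CACGTT had 9 (1.88%) higher and 16 (3.34%) lower by 2-fold. Of the 54 genes with a D-box, 0 were 2-fold higher and 4 (7.41%) were 2-fold lower. The 79 genes with TAGGTTA, the word searched after the Bmal1 sequence had been read, had 2 (2.53%) higher and 3 (3.80%) lower. Bmal1 itself is among the higher genes counted for TAGGTTA, the word taken from it, and for the ROR element cores. Per2 is among the lower genes counted for the D-box and for CACGTT, and Bhlhe41 among those for CACGTG. The 273 genes with the cAMP response element TGACGTCA had 3 (1.10%) higher and 3 (1.10%) lower, and their median of -0.020 lay above the -0.031 over the 8023 genes. The medians of the other sets were -0.056 for the ROR element cores, -0.064 for CACGTG, -0.066 for CACGTT, -0.044 for the D-box and -0.10 for TAGGTTA, all below it.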
